A study of Rattus norvegicus with 6 samples.

Results

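Transforming growth factor-beta (TGF-beta) signaling was followed through 9 genes in mammary tumors of older and younger rats. They were the ligand genes Tgfb1, Tgfb2, Tgfb3 and Inhba, the receptor genes Tgfbr1, Tgfbr2 and Tgfbr3, and the SMAD genes Smad3 and Smad7. The genes were chosen by their known roles, but with earlier results of these data known. They are rows of the deposited read count table that carry these symbols, and each symbol matched 1 row of the 26195 rows with a gene name. All 9 passed the filter on low counts, which left 13139 genes for testing. The libraries came from 6 mammary carcinomas of female F344 rats, an inbred strain used widely in aging studies. Tumors 102, 107 and 116 grew in older rats, which were 21 to 23 months old when they received the carcinogen, and tumors 157, 158 and 167 grew in younger rats, which were 4 months old and virgin, while the parity of the older rats is not given in the sources used here. Both age groups received DMBA, a polycyclic hydrocarbon that causes mammary tumors in rats, as a single gavage of 65 mg per kg, and carried an implanted pellet with 50 mg of MPA, a synthetic progestin released over 90 days. The model is therefore one of tumors induced by a carcinogen in rats that carried a progestin pellet, and each tumor was sequenced as 1 library of bulk tissue. The younger group holds every carcinoma that its cohort developed, the older group those with enough tissue, and normal mammary tissue was not analysed here.

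TGF-beta ligands are secreted in a latent form and are bound on the cell surface by a type II receptor, which phosphorylates a type I receptor, and the type I receptor in turn phosphorylates SMAD2 and SMAD3. These enter the nucleus with SMAD4 and regulate genes of growth arrest, extracellular matrix and cell shape, while SMAD7 is induced by the pathway and blocks the type I receptor. In the mammary gland the pathway restrains epithelial growth and takes part in the loss of milk-producing cells after lactation, and in mammary tumors it is known both as a brake on growth and as a driver of invasion and of suppressed immunity.

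Counts per tumor over the named rows ran from 3394451 to 6383983, so that 3 counts, taken as the floor, corresponded to between 0.53 and 1.03 CPM (counts scaled for library size, here with the TMM factors of edgeR). Of 6 luminal epithelial markers, 5 were listed and detected in the tumors (Krt19 was not listed), with summed levels of 1171 to 1250 CPM in tumors from older rats and 1500 to 1779 CPM in tumors from younger rats. The tissue label was therefore matched by epithelial markers in each of the 6 libraries. Milk protein genes (Csn1s1, Csn2, Csn3, Wap and Lalba) varied from 5621 CPM in tumor 167 to 170600 CPM in tumor 158. Macrophage markers summed to 198 to 352 CPM in tumors from older rats and to 93.3 to 153 CPM in tumors from younger rats. In the same order, adipocyte markers summed to 20 to 176 against 6.17 to 18 CPM. The nearest sums were 20.02 CPM (tumor 116) and 18.03 CPM (tumor 157), and 0 of the 3 tested adipocyte genes had groups without overlap. Single genes weighed heavily, since Fabp4 gave 134.6 CPM in tumor 102. Lep had 110 counts in tumor 107 but 0 in tumors 116 and 157. T cell markers summed, again older before younger, to 16.2 to 86.1 against 4.52 to 8.66 CPM. B and plasma cell markers summed to 4.55 to 22 against 1.73 to 4.16 CPM. Both lists were near the floor, with only 2 of 6 T cell genes (Cd3e and Cd8a) and 1 of 5 B and plasma cell genes (Jchain) tested. Cd8a alone stood at 74.6 CPM in tumor 107, and Cd3d and Cd3g, with at most 15 counts in a tumor, overlapped between the age groups. The sums of basal, fibroblast, pericyte, endothelial, skeletal muscle and milk protein genes overlapped between the age groups. Tumor 102 had the highest summed adipocyte markers (176 CPM, against 6.17 to 33.6 CPM in the other 5 tumors) and the highest fibroblast markers (1475 CPM, against 167 to 1129 CPM), and the lowest basal and myoepithelial markers (396 CPM, against 661 to 1789 CPM). In libraries of whole tissue, fewer cells of a type and less RNA per cell cannot be told apart.

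In the comparison by age of the host, 0 of the 9 genes passed an adjusted p of 0.05 (quasi-likelihood test of edgeR, adjusted by Benjamini-Hochberg over all genes tested). This is also the background, since 0 of 13139 genes passed, or 0%. With an unadjusted p under 0.05, the count was 0 of the 9 genes, against 8.59% of all genes tested. By the sign of the fold change alone, 7 of the 9 lay on the higher and 2 on the lower side in older hosts, with a median log2 fold change of 0.23 against -0.0039 over all genes tested. The 3 receptors and both SMADs were on the higher side and Tgfb2 and Tgfb3 on the lower side. The age groups did not overlap for 1 of the 9 genes (11.1%), Tgfbr1, and they did not overlap for 12.1% of all genes tested, so this share is that of the background. DESeq2's Wald test, the tool named by the authors, called 2.49% of 13104 genes at an adjusted p of 0.05 and 0 of the 9, and limma-voom called 0 genes.

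**Figure D1:**
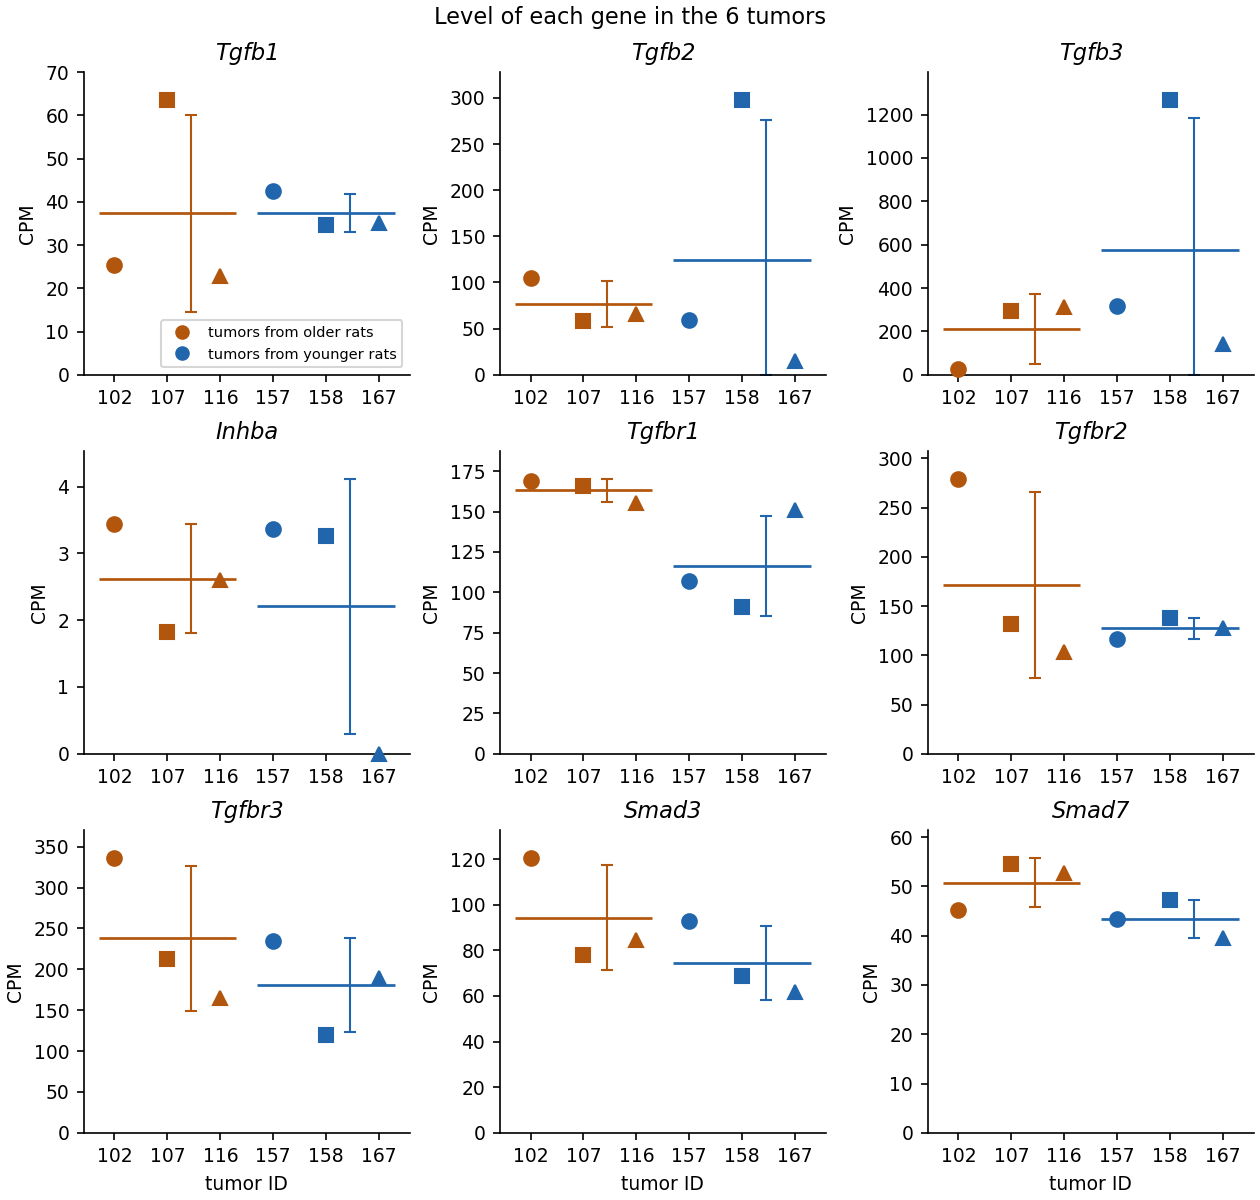
Level of each of the 9 genes in CPM (y axis, linear from 0) in the 6 tumors (x axis, tumor ID), with tumors from older rats in brown and from younger rats in blue. Horizontal lines are group means and vertical bars are ± 1 SD (n = 3), ending at 0 where the SD exceeds the mean. Tgfb3 ran from 26.9 CPM in tumor 102 to 1269 CPM in tumor 158, whereas Smad7 stayed between 39.5 and 54.6 CPM, and only Tgfbr1 had groups without overlap.

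The 4 ligands varied more from tumor to tumor than the receptors and SMADs, Tgfb1 only barely. The SD of log2 CPM over the 6 tumors was 1.82 for Tgfb3, 1.38 for Tgfb2, 1.22 for Inhba and 0.53 for Tgfb1. Among all genes tested, these SDs stood at percentiles 98.4, 95.2, 92.6 and 59.1. The receptors had SDs of 0.37 (Tgfbr1), 0.51 (Tgfbr2) and 0.50 (Tgfbr3), at percentiles 38.7, 57.0 and 56.2. Smad3 had an SD of 0.34 (percentile 33.0) and Smad7 one of 0.17 (percentile 5.62), the smallest of the 9. The SD of Inhba rests on 0 to 19 counts per tumor and includes counting error.

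Tgfb3, one of the 3 TGF-beta isoforms and the one induced in the gland when milk stasis begins, had the widest range. In tumors from older rats it stood at 26.9 CPM (tumor 102), 296 CPM (107) and 313 CPM (116), and in tumors from younger rats at 319 CPM (157), 1269 CPM (158) and 144 CPM (167). The groups overlapped, because 2 of the older values lay between the lowest and the highest younger value. The highest level was 47.2-fold above the lowest. Tumor 158 lay 3.98-fold above the next tumor and tumor 102 lay 5.35-fold below the next, while the other 4 tumors were between 144 and 319 CPM. Group means were 212 ± 160 CPM for older and 577 ± 605 CPM for younger hosts (SD, n = 3 each). The log2 fold change, older relative to younger, was -1.44 (SE 1.0, 95% interval -3.78 to 0.89, adjusted p = 0.807, edgeR). Without tumor 158 it was -0.12, and without tumor 102 it was -0.95.

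The genes with a profile most like that of Tgfb3 over the 6 tumors were Lalba, Chadl and Prom2, out of 11869 named genes with a mean of at least 5 CPM. Likeness was the mean absolute difference between log2 CPM centered on each gene's mean, which was 0.24 for Lalba, 0.30 for Chadl and 0.36 for Prom2. Lalba encodes alpha-lactalbumin, the milk protein that serves in lactose synthesis. It stood at 16.2, 270 and 237 CPM in tumors 102, 107 and 116 and at 146, 805 and 89.9 CPM in tumors 157, 158 and 167. Both Tgfb3 and Lalba were thus lowest in tumor 102 and highest in tumor 158. Of the other milk protein genes, Csn1s1 (97813 CPM) and Csn3 (36990 CPM) were also highest in tumor 158 but lowest in tumor 167. Csn2 and Wap were highest in tumor 102, at 111360 and 583 CPM, against 34502 and 505 CPM in tumor 158. The match was selected from all candidates over 6 tumors and is given as a description.

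Tgfb2, the isoform that requires TGFBR3 for high-affinity binding, was also highest in tumor 158. Its levels were 105, 58.4 and 66.1 CPM in tumors 102, 107 and 116 and 59.8, 298 and 15.1 CPM in tumors 157, 158 and 167. The younger tumors held both the highest and the lowest value, 19.8-fold apart, and enclosed the 3 older ones. Group means were 76.4 ± 24.8 CPM and 124 ± 152 CPM (SD, n = 3 each), with a log2 fold change of -0.71 (SE 0.89, 95% interval -2.78 to 1.36, adjusted p = 0.912, edgeR). The sign depended on 1 library, since the value was 1.03 without tumor 158. It was also positive, at 0.15, in limma-voom with all 6 tumors. The closest profiles were those of Me1, the cytosolic malic enzyme that supplies NADPH (0.21), Slc5a1, the intestinal-type sodium/glucose cotransporter (0.22), and Pdzrn3 (0.22). Me1 stood at 1172 CPM in tumor 158 and 72.1 CPM in tumor 167, the same 2 tumors in which Tgfb2 was highest and lowest.

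Tgfb1, the isoform best known for immune suppression and fibrosis, did not separate by age. Its levels were 25.5, 63.6 and 22.8 CPM in tumors 102, 107 and 116 and 42.4, 34.6 and 35.1 CPM in tumors 157, 158 and 167. Tumor 107 was the highest and the other 2 older tumors were the lowest, so the older values lay on both sides of all younger ones. Both groups had a mean of 37.3 CPM, with an SD of 22.8 in tumors from older rats and 4.41 in tumors from younger rats (n = 3 each). The log2 fold change was 0.00061 (SE 0.42, 95% interval -0.97 to 0.97, adjusted p = 0.9998, edgeR). It was -0.63 without tumor 107 and 0.25 without tumor 116, and its sign turned under other scalings, so no direction can be given. Its nearest profiles were Plcd3, a phospholipase C (0.13), Flna, the actin crosslinker filamin A (0.14), and Arhgap23 (0.14). Flna stood at 1513 CPM in tumor 107 against 508 and 596 CPM in the other 2 older tumors. Tumor 107 also had the highest summed pericyte and smooth muscle markers, 2301 CPM against 431 to 1791 CPM in the other 5. Of this list, Acta2, Myh11 and Des were highest in tumor 107, but Rgs5 was highest in tumor 167 (92.3 against 76.4 CPM). Of the basal and myoepithelial list, Cnn1, Mylk and Oxtr were highest in tumor 107, and Krt5, Krt17 and Tp63 in tumor 157. The part of these markers in the Tgfb1 level was not tested.

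Inhba encodes the beta-A subunit whose dimer is activin A, a ligand that signals through SMAD2 and SMAD3 but binds activin receptors. It was near the limit of detection. The counts were 10, 8 and 13 in tumors 102, 107 and 116 and 19, 18 and 0 in tumors 157, 158 and 167. In CPM these were 3.44, 1.82 and 2.60 against 3.36, 3.26 and 0, and the floor of 3 counts was 0.741 CPM in tumor 167. The exact 95% Poisson intervals, which cover counting error only, overlapped among the 5 tumors with counts and ran from 0.785 to 6.33 CPM at their outer bounds. For the 0 in tumor 167 the interval reached 0.911 CPM. That is above the lower bound of 0.785 CPM in tumor 107 and below those of the other tumors with counts. The log2 fold change was 0.19 (SE 0.94, 95% interval -2.01 to 2.39, adjusted p = 0.981, edgeR), and it was 1.01 in limma-voom, -0.35 without tumor 167 and -0.038 without tumor 102. Igfbp4 (0.19), Mmp2 (0.20) and Bcl11a (0.33) had the closest profiles. Mmp2, the gelatinase secreted mainly by stromal cells, stood at 203, 85.9 and 81.7 CPM in tumors 102, 107 and 116 and at 164, 148 and 17.5 CPM in tumors 157, 158 and 167. Fibroblast markers (9 of 9 detected) summed to 167 CPM in tumor 167 and to 193 CPM in tumor 107, the 2 tumors with the least Inhba, and to 656 to 1475 CPM in the other 4. Their part in the Inhba level was not tested.

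**Figure D2:**
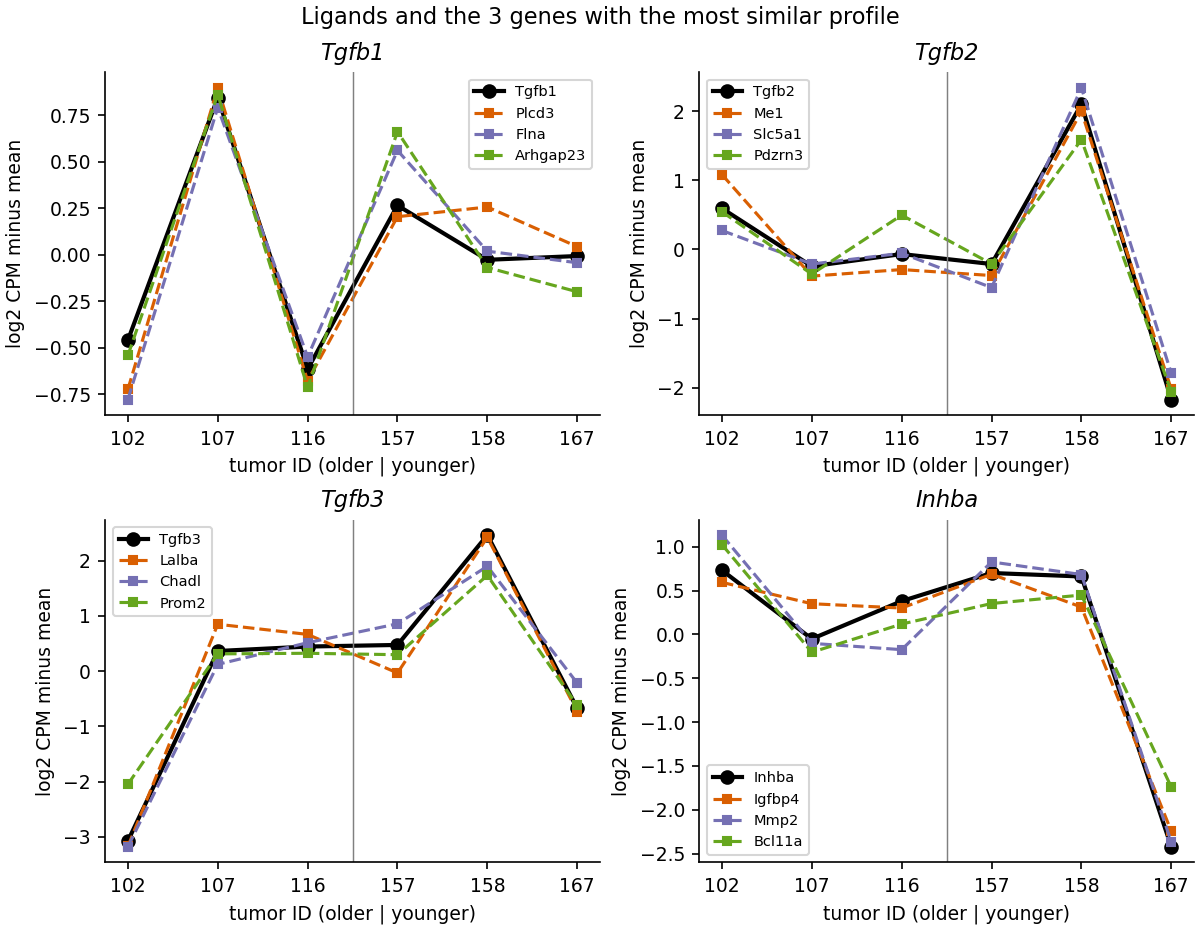
Log2 CPM minus the gene's mean over the 6 tumors (y axis) in each tumor (x axis, older rats left and younger rats right of the vertical line) for each ligand (black) and the 3 genes with the most similar profile (colored, dashed). Lines join the tumors only to make a profile visible. Tgfb3 and Lalba were both lowest in tumor 102 and highest in tumor 158, and Tgfb2 and Me1 were both highest in tumor 158 and lowest in tumor 167.

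Tgfbr1, the type I receptor that carries the kinase signal to the SMADs, was the gene whose age groups did not overlap. It stood at 169, 166 and 155 CPM in tumors 102, 107 and 116 and at 107, 90.8 and 151 CPM in tumors 157, 158 and 167. The older values lay within a narrow band, and the nearest pair across groups was 155.19 CPM (tumor 116) against 150.83 CPM (tumor 167). Group means were 163 ± 7.09 CPM for older and 116 ± 31.1 CPM for younger hosts (SD, n = 3 each). The log2 fold change was 0.49 (SE 0.25, 95% interval -0.10 to 1.08, adjusted p = 0.693, edgeR), and no overlap with a higher level in tumors from older rats was seen for 6.51% of all genes tested. Leaving out each tumor gave 0.34 to 0.72, with the highest value without tumor 167. Scaled by library totals alone, the groups overlapped.

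Tgfbr2 encodes the type II receptor that binds the ligand, and Tgfbr3 encodes betaglycan, the co-receptor that presents it. Tgfbr2 stood at 279, 132 and 103 CPM in tumors 102, 107 and 116 and at 117, 138 and 127 CPM in tumors 157, 158 and 167. Tumor 102 stood 2.02-fold above the next tumor, and the other 5 lay between 103 and 138 CPM. Group means were 171 ± 94.4 CPM and 127 ± 10.8 CPM (SD, n = 3 each), a log2 fold change of 0.43 (SE 0.38, 95% interval -0.46 to 1.31, adjusted p = 0.868, edgeR) that was -0.12 without tumor 102. Tgfbr3 stood at 336, 212 and 165 CPM in tumors 102, 107 and 116 and at 234, 120 and 189 CPM in tumors 157, 158 and 167. The groups overlapped with tumor 102 again at the top. Group means were 238 ± 88.4 CPM and 181 ± 57.6 CPM (SD, n = 3 each), a log2 fold change of 0.39 (SE 0.36, 95% interval -0.45 to 1.24, adjusted p = 0.873, edgeR). Without tumor 102 it was 0.057.

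Smad3, the receptor-activated SMAD that binds DNA, stood at 121, 78.0 and 84.3 CPM in tumors 102, 107 and 116 and at 92.6, 68.7 and 61.7 CPM in tumors 157, 158 and 167. Tumor 102 was highest, and tumor 157 lay above the other 2 older tumors. The means of 94.3 ± 22.9 and 74.4 ± 16.2 CPM (SD, n = 3 each) gave a log2 fold change of 0.34 (SE 0.27, 95% interval -0.29 to 0.97, adjusted p = 0.842, edgeR), or 0.12 without tumor 102. Smad7, the inhibitory SMAD, stood at 45.1, 54.6 and 52.7 CPM in tumors 102, 107 and 116 and at 43.3, 47.2 and 39.5 CPM in tumors 157, 158 and 167. Only tumor 158 among the younger ones exceeded the lowest older value. The means were 50.8 ± 5.0 and 43.3 ± 3.86 CPM (SD, n = 3 each), with a log2 fold change of 0.23 (SE 0.22, 95% interval -0.29 to 0.75, adjusted p = 0.879, edgeR). The highest level of Smad7 was 1.38-fold above the lowest, against 1.95-fold for Smad3.

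Tumor 102 carried the highest level of 5 of the 9 genes (Inhba, Tgfbr1, Tgfbr2, Tgfbr3 and Smad3) together with the lowest level of Tgfb3. Tumor 158 had the highest level of Tgfb2 and Tgfb3 and the lowest of Tgfbr1 and Tgfbr3, but the 2 tumors were not opposite throughout, since tumor 102 was second in Tgfb2 and tumor 158 second in Tgfbr2. Tumor 167 had the lowest level of 4 genes (Tgfb2, Inhba, Smad3 and Smad7). These ranks belong to single tumors and carry no test. Milk protein genes summed to 157100, 118700 and 39080 CPM in tumors 102, 107 and 116 and to 26370, 170600 and 5621 CPM in tumors 157, 158 and 167. Their part in the receptor levels was not tested. Summed fibroblast and adipocyte markers were highest in tumor 102, but this did not hold for every gene of the lists. Col1a1, Col3a1 and Lum were highest in other tumors, Thy1 was lowest in tumor 102 (11.7 CPM), and Lep was highest in tumor 107. The part of these markers in the receptor levels of tumor 102 was not tested.

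**Figure D3:**
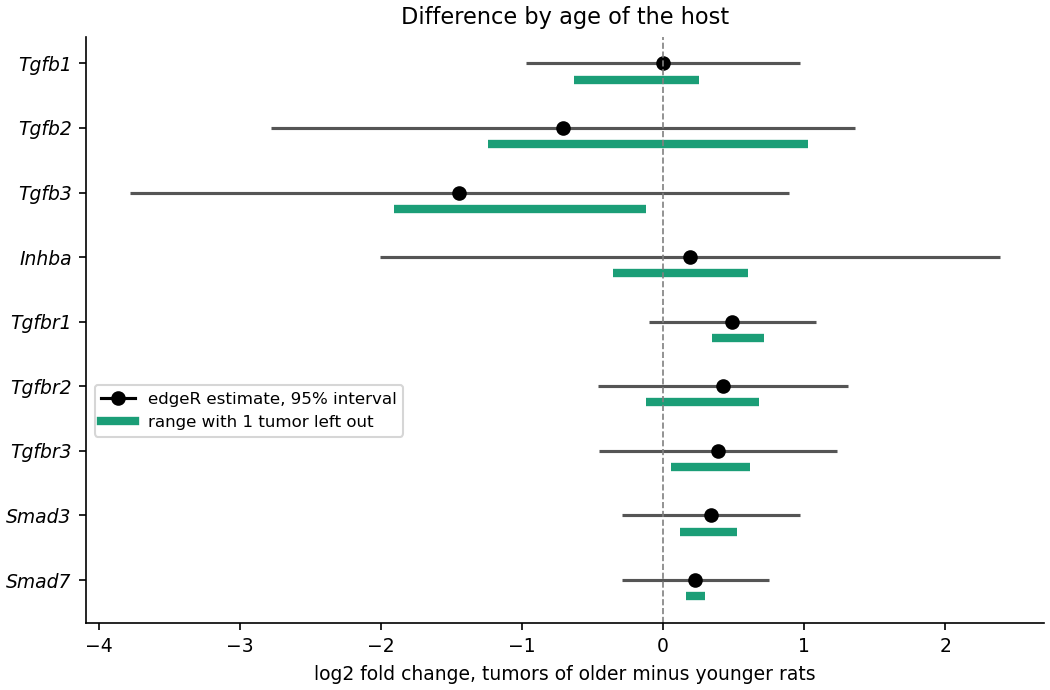
Log2 fold change of each gene, tumors of older minus younger rats (x axis), with the edgeR estimate (black point) and its 95% interval (thin line), and the range of estimates with each tumor left out in turn (green bar). All 9 intervals include 0, and the ranges for Tgfb1, Tgfb2, Inhba and Tgfbr2 include both signs.

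Promoter sequences of the 9 genes were read from the RefSeq promoter windows of build GRCr8, from 250 bases before to 50 bases after the start of the gene, while the counts were made on build mRatBN7.2. All 9 genes matched an entry. The GC box GGGCGG, searched on both strands, was found in 5 of 5 windows of receptor and SMAD genes and in 0 of 4 windows of ligand genes, and in 33.1% of all 33469 windows. The TATA box TATAAA, also searched on both strands, was found for Inhba alone, and in 14.2% of all windows. The palindromic SMAD element GTCTAGAC (0.197% of all windows) and the cyclic AMP response element TGACGTCA (1.83%) were found in 0 of the 9. The matches did not overlap each other. The GC content was 74.7% for Tgfbr1, 59.0% for Tgfbr2, 69.7% for Tgfbr3, 69.7% for Smad3 and 77.7% for Smad7, and 57.7% for Tgfb1, 59.0% for Tgfb2, 47.7% for Tgfb3 and 45.7% for Inhba, against a median of 51.7% over all windows. The motifs were chosen after the windows had been read, and a match is a description of letters, not of a bound site. Stretches of 80 bases are shown for Tgfbr1, whose age groups did not overlap, for Tgfb3, which varied most, and for Inhba, which had the fewest counts. Each is given on the strand of its gene, 5′ to 3′, and capitals mark the motif letters, with CCGCCC standing for the GC box on the opposite strand.
Tgfbr1, chr5:66449238-66449317, plus strand: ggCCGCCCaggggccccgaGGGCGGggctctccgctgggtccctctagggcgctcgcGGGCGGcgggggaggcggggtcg
Tgfb3, chr6:111456947-111457026, minus strand: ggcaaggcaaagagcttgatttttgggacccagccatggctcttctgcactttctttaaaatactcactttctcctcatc
Inhba, chr17:53804509-53804588, minus strand: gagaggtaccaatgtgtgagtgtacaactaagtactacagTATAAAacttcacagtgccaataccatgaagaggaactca
The Tgfbr1 stretch holds 3 GC boxes, the Tgfb3 stretch none of the motifs searched and the Inhba stretch the TATA box. The 4 ligands, which lack a GC box in this window, had the 4 largest SDs over the tumors, although Tgfb1 (0.53) and Tgfbr2 (0.51) were nearly alike. The same split is that of ligands against the other genes, and a link between motif and spread was not tested.

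Ratios within a tumor do not depend on library size, except through the added prior count, which matters at low counts. The 5 pairs were compared between the age groups by a two-sided exact permutation test of log2 ratios. Its smallest possible p with 3 against 3 tumors is 0.1. Levels of different genes were not compared, because gene lengths were not used, and only differences between the age groups are read. The inhibitory to activating SMAD ratio, Smad7/Smad3, was -1.41, -0.51 and -0.67 in tumors 102, 107 and 116 and -1.09, -0.54 and -0.64 in tumors 157, 158 and 167. The difference, older minus younger, was -0.11 (exact permutation p = 0.7, adjusted over the 5 ratios 0.9). The co-receptor to receptor ratio, Tgfbr3/Tgfbr2, was 0.27, 0.68 and 0.68 against 1.0, -0.20 and 0.57, a difference of 0.086 (exact permutation p = 0.8, adjusted 0.9). Neither ratio separated the age groups.

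The ligand ratios varied more. Tgfb3/Tgfb1 was 0.075, 2.21 and 3.75 in tumors 102, 107 and 116 and 2.90, 5.18 and 2.02 in tumors 157, 158 and 167, so that tumors 102 and 158 were again at the ends. Its difference was -1.36 (exact permutation p = 0.5, adjusted 0.9), and -0.39 without tumor 102, -0.45 without tumor 158 and -2.23 without tumor 116. Tgfb2/Tgfb1 was 2.02, -0.12 and 1.52 against 0.49, 3.09 and -1.20, a difference of 0.34 (exact permutation p = 0.9, adjusted 0.9).

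The 1 ratio without overlap was that of Inhba to Fst, the gene of follistatin, which binds and neutralizes activin. It was -0.34, -2.72 and -1.38 in tumors 102, 107 and 116 and -3.43, -2.97 and -3.21 in tumors 157, 158 and 167. As calculated, the older values were thus all above the younger ones, although tumor 107 exceeded tumor 158 by little. The means were -1.48 ± 1.20 and -3.20 ± 0.23 (SD, n = 3 each), a difference of 1.72 (exact permutation p = 0.1, the smallest possible, adjusted 0.5). With 0 counts of Inhba in tumor 167 the ratio there is set by the added prior count of 2, and it rests on Fst at 3.21 CPM. The exact Poisson interval of these 0 counts reaches 0.911 CPM of Inhba. At 0.911 against 3.21 CPM, tumor 167 would lie above tumor 107, with 1.82 against 14.5 CPM, and the groups would overlap. The separation of this ratio thus does not hold within the counting error of tumor 167. Fst itself stood at 4.48, 14.5 and 7.41 CPM in tumors 102, 107 and 116 and at 40.1, 28.9 and 3.21 CPM in tumors 157, 158 and 167, so that its groups overlapped through tumor 167 (log2 fold change -1.44, SE 0.82, adjusted p = 0.738, edgeR). Fstl3, a follistatin-like protein that also binds activin, stood at 1.72, 7.05 and 6.41 CPM against 14.7, 15.7 and 14.6 CPM, without overlap (log2 fold change -1.54, SE 0.51, adjusted p = 0.425, edgeR). A level lower in tumors from older rats without overlap was seen for 5.58% of all genes tested.

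**Figure D4:**
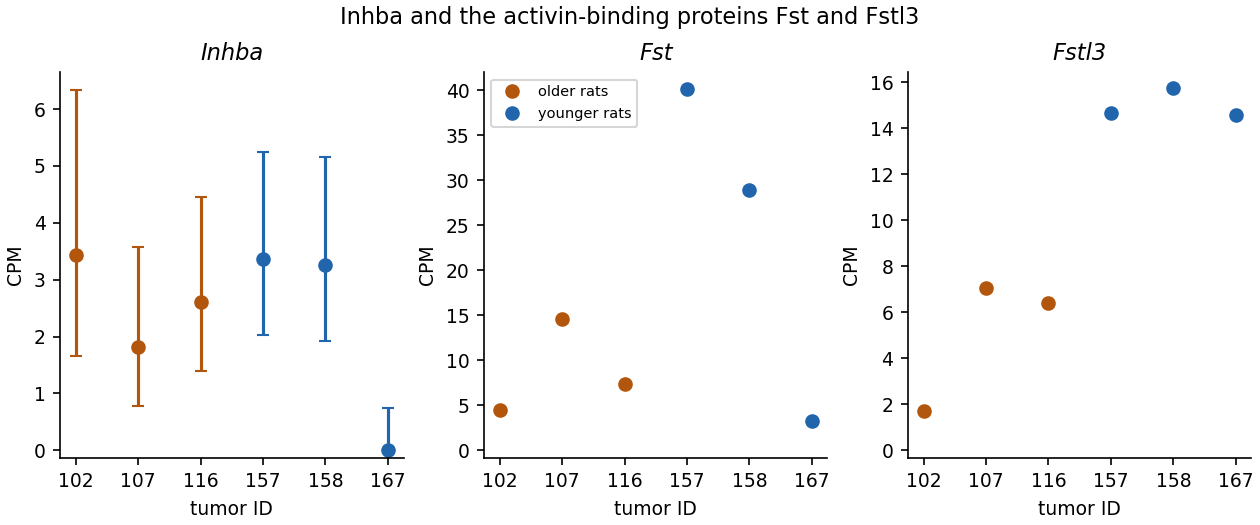
Level in CPM (y axis, each panel with its own linear scale) of Inhba, Fst and Fstl3 in each tumor (x axis, tumor ID), with tumors from older rats in brown and from younger rats in blue. Bars on Inhba are exact 95% Poisson intervals of the counts. For tumor 167, with 0 counts, the bar ends at the floor of 3 counts (0.741 CPM), short of its exact upper bound of 0.911 CPM. Inhba overlapped between the groups, Fst was high in tumors 157 and 158 but not in tumor 167, and the 3 younger values of Fstl3 lay above the 3 older ones.

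The wider pathway was read from 6 lists of other genes. Of 73 genes listed, 61 were tested, 30 lay on the higher and 31 on the lower side by sign in older hosts, with a median log2 fold change of -0.0030, and 0 passed the adjusted threshold. With an unadjusted p under 0.05 there were 5 of 61 genes (8.20%), close to the 8.59% of all genes tested. All 5 were on the lower side in older hosts, where 3.29% of all genes tested lay at this level (432 genes, against 696 on the higher side). Groups without overlap were seen for 1 gene higher (1.64%, against 6.51% of all genes tested) and 6 genes lower (9.84%, against 5.58%), and the 7 of 61 in all compare with 12.1% of all genes. DESeq2 called 2 of the 61 genes, Vegfa and Cdkn1a, both lower in older hosts, against 2.49% of all genes.

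Among the 20 tested target genes, 9 were higher and 11 lower by sign (median -0.16), 3 had an unadjusted p under 0.05, all lower (against 8.59% of all genes in either direction and 3.29% on the lower side), and Il11 had too few counts to be tested. Vegfa, the main angiogenic growth factor, stood at 186, 143 and 140 CPM in tumors 102, 107 and 116 and at 507, 394 and 262 CPM in tumors 157, 158 and 167. Its groups did not overlap, and its log2 fold change was -1.31 (SE 0.31, adjusted p = 0.314 in edgeR and 0.0115 in DESeq2). Cdkn1a and Cdkn2b, which encode the cell cycle inhibitors p21 and p15, were singled out after their values were seen. Cdkn1a stood at 13.4, 10.001 and 27.6 CPM against 67.7, 70.0 and 36.3 CPM, without overlap (log2 fold change -1.76, SE 0.45, adjusted p = 0.326 in edgeR and 0.0223 in DESeq2). Cdkn2b stood at 5.51, 7.73 and 6.01 CPM against 11.1, 10.7 and 14.3 CPM, also without overlap (log2 fold change -0.90, SE 0.35, adjusted p = 0.527, edgeR). Cdkn1a and Vegfa are also regulated by DNA damage and low oxygen, respectively, through other pathways.

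Klf10, an early response gene of TGF-beta, was the target with the smallest p among those higher in tumors from older rats. It stood at 199, 55.9 and 58.5 CPM in tumors 102, 107 and 116 and at 52.2, 53.4 and 47.2 CPM in tumors 157, 158 and 167, without overlap but with tumor 102 far above the rest (log2 fold change 1.03, SE 0.50, adjusted p = 0.657, edgeR). Fn1, which encodes fibronectin, was at 1337 CPM in tumor 102 and at 41.0 to 308 CPM in the other 5 (log2 fold change 1.53, SE 1.03). Acta2, the smooth muscle actin gene, was instead lowest in tumor 102 at 221 CPM, with 300 to 1186 CPM in the other 5 (log2 fold change -0.71, SE 0.62). Fn1 and Acta2 were chosen after their values were seen. In tumor 102 the summed fibroblast markers were highest. The sums of basal and myoepithelial markers (396 CPM) and of pericyte and smooth muscle markers (431 CPM, a list that includes Acta2) were lowest there. The part of these markers in the levels of Fn1 and Acta2 was not tested.

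Of the 11 genes of latency and activation, all tested, 4 were higher and 7 lower by sign (median -0.063) and 1 had an unadjusted p under 0.05. That gene was Furin, the protease that cleaves the TGF-beta precursors, with 306, 251.4 and 333 CPM in tumors 102, 107 and 116 and 485, 553 and 415 CPM in tumors 157, 158 and 167. The groups did not overlap, with a log2 fold change of -0.71 (SE 0.26, adjusted p = 0.481, edgeR). Nrros, which tethers latent TGF-beta on macrophages and microglia, stood at 18.6, 18.6 and 5.21 CPM against 7.96, 5.43 and 3.95 CPM, with overlap (log2 fold change 1.27, SE 0.56, adjusted p = 0.595, edgeR). Macrophage markers were higher by sign for 7 of 7 genes in tumors from older rats, 3 of them without overlap (6.51% of all genes tested were higher without overlap), and none was at 0 in a tumor. Their part in the Nrros level was not tested.

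**Figure D5:**
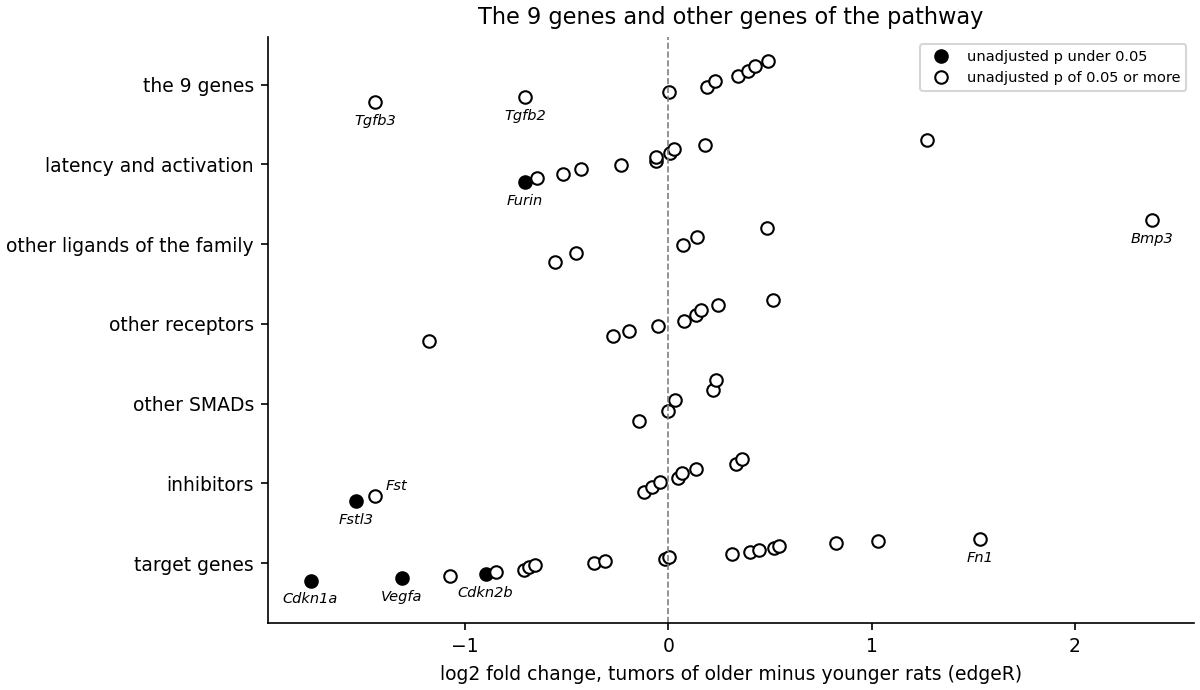
Log2 fold change, tumors of older minus younger rats (x axis, edgeR), of the 9 genes and of the tested genes in 6 other lists of the pathway (rows), with 1 circle per gene. Filled circles have an unadjusted p under 0.05, and none passed the adjusted threshold. The 5 filled circles (Furin, Fstl3, Cdkn1a, Vegfa and Cdkn2b) are all lower in tumors from older rats, and Bmp3 is the farthest to the right at 2.38.

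Of 11 other ligands, 6 were tested, 4 higher and 2 lower by sign (median 0.11), and Mstn, Bmp2, Bmp4, Bmp5 and Bmp6 had too few counts. Bmp3, an antagonist-like bone morphogenetic protein, was at 229 CPM in tumor 107 and at 9.55 to 31.1 CPM in the other 5 tumors (log2 fold change 2.38, SE 1.07, adjusted p = 0.612, edgeR). Inha, the inhibin alpha subunit that pairs with the Inhba product, had a log2 fold change of -0.56 (adjusted p = 0.877, edgeR). Of 10 other receptors, 9 were tested (not Acvr1c), 5 higher and 4 lower by sign (median 0.074). Acvrl1, the endothelial type I receptor, had a log2 fold change of 0.51 (adjusted p = 0.914, edgeR). Bmpr1b, a type I receptor of bone morphogenetic proteins, stood at 8.26, 53.6 and 24.2 CPM against 60.99, 57.2 and 78.0 CPM, without overlap (log2 fold change -1.18, SE 0.58, adjusted p = 0.659, edgeR).

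Of 6 other SMADs, 5 were tested (not Smad9), 3 higher and 2 lower by sign (median 0.034). Smad4, the shared partner of the activated SMADs, had a log2 fold change of 0.22 (adjusted p = 0.923, edgeR), and Smad1, which carries bone morphogenetic protein signals, one of -0.14 (adjusted p = 0.956, edgeR). Of 14 inhibitors, 10 were tested (not Bambi, Nog, Grem1 or Chrd), 5 higher and 5 lower by sign (median 0.0015). Fstl3 had the smallest p on the lower side, followed by Fst. On the higher side it was Skil, a corepressor of SMADs, with a log2 fold change of 0.36 (adjusted p = 0.847, edgeR).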

How the data were processed

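Bulk RNA-seq of 6 rat mammary tumors was analysed, 1 library per tumor. The authors deposited raw read counts per gene; per the submitters' processing notes these came from FastQC 0.11.7, Trimmomatic 0.38, STAR 2.7.9a, Picard 2.18.12 and HTSeq 0.13.5 on build mRatBN7.2. The annotation and strand setting are not given in the sources used here, so overlapping and antisense genes may share reads. The labels give polyA RNA and reads of 100 bases, the protocol ribosomal depletion and 150 bases.

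Samples were grouped by the labels. Of 30562 rows, 4367 without a gene name were left out of library sizes and tests (2.17% to 3.64% of counts), and 0 columns of per-sample values were left unused. Counts were filtered with filterByExpr, scaled by TMM (factors 0.861 to 1.13) and tested with edgeR 4.0.16 in R 4.3.3 (quasi-likelihood, no covariates, Benjamini-Hochberg, threshold 0.05). Standard errors were calculated back from the F statistic, and log2 CPM used a prior count of 2. Each edgeR p-value tests the age difference against the spread between tumors, 3 per group, with that spread estimated partly from all genes. The authors' methods name DESeq2 without settings, so DESeq2 1.42.0 and limma 3.58.1 (voom) served as alternatives, beside other scalings, filters and each tumor left out. The test was checked on simulated data.

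The genes and lists were chosen with earlier results of these data known. Named were all 9 genes, the tested gene with the smallest p in each direction per pathway list, and the 3 closest profiles per ligand. Protein sequences and gene lengths were not used here. Values of 1 listed target gene are not reported here.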

Additional observations from a re-analysis of the deposited data

How the results depend on the processing

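No paired analysis was possible because each tumor has an ID of its own and the age groups have none in common. Of 125 alternative fits of the 9 genes, 109 kept the sign of the log2 fold change and 16 turned it, all in 4 genes, and 0 genes passed the adjusted threshold in any. Tgfb1, at 0.00061, turned to -0.0033 with DESeq2's size factors, -0.0034 in DESeq2, -0.094 with library totals, -0.14 in limma-voom, -0.021 with at least 1 count in any tumor, -0.0017 under a minimum of 10 counts per tumor, -0.0051 once the 10 genes with the most counts were dropped and -0.0071 with the rows without a gene name, an alternative chosen after seeing the data. Tgfb2 turned to 0.15 in limma-voom, where Inhba was 1.01 instead of 0.19. With library totals 0 of the 9 genes had groups without overlap. DESeq2 called 326 genes in all and 2 pathway genes, where edgeR called 0 and 0; edgeR gave 1128 genes an unadjusted p under 0.05 and DESeq2 1319. Leaving out each tumor, the log2 fold change ran from -0.63 to 0.25 for Tgfb1, -1.24 to 1.03 for Tgfb2, -0.35 to 0.60 for Inhba and -0.12 to 0.68 for Tgfbr2. Genes without overlap ran from 1 to 2 and those with an unadjusted p under 0.05 from 0 to 1, the latter without tumor 167. The ratio differences ran from -0.29 to 0.16 for Smad7/Smad3, -0.65 to 1.49 for Tgfb2/Tgfb1, -0.24 to 0.36 for Tgfbr3/Tgfbr2, -2.23 to -0.39 for Tgfb3/Tgfb1 and 1.15 to 2.35 for Inhba/Fst, which was 2.32 with a prior count of 0.5. The minimum of 10 counts per tumor removed Inhba, which depth limits most. The causes were not tested.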
